A study of Mus musculus with 3 samples.

Results

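The iron and heme handling genes described here are 10 genes chosen by symbol: Trf, Tfrc, Slc11a2, Steap4, Slc40a1, Cp, Fth1, Ftl1, Lcn2 and Hmox1. All 10 were found among the 16610 genes of the table. Ribosome-bound RNA was pulled down by RiboTag, in which a tagged ribosomal protein is precipitated with the transcripts it carries, from the middle section of mouse brain hemispheres. There were 3 libraries, 1 per group, each a pool of 3 animals killed after 3 days: the right side of animals with no middle cerebral artery occlusion (MCAO, a stroke model), called the control pool; the right side of animals that had MCAO for 1 h, called the contralateral pool; and the left side of MCAO animals, called the occluded pool. The labels do not say whether both sides came from the same MCAO animals. The series title names astrocytes, but the labels give no driver line for the tag, and no strain, age or sex. A left hemisphere without occlusion was not analysed here, so side and occlusion cannot be told apart.

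Cells take up iron mainly as transferrin, the plasma iron carrier, which binds the transferrin receptor and is internalised. Iron is then reduced by enzymes of the STEAP family, passed into the cytosol by the divalent metal transporter, and stored in ferritin shells built of heavy and light subunits or exported through ferroportin with the help of the ferroxidase ceruloplasmin. Heme oxygenase frees iron from heme, and lipocalin 2 binds iron through bacterial or other siderophores. In the brain, transferrin transcripts are abundant in oligodendrocytes and choroid plexus, transferrin receptor serves iron entry at the endothelium and in neurons, and a membrane-bound ceruloplasmin is made by astrocytes. Translation of the ferritin transcripts is held back by iron regulatory proteins when iron is scarce.

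The recovered depth was 31833456 reads in the control pool, 33886604 in the contralateral pool and 25930258 in the occluded pool. Levels are normalised counts, that is reads divided by a size factor of each library, and ratios carry 95% counting intervals that leave out variation between animals. Levels of different genes are not ranked, since transcript lengths were not used. Of the fixed astrocyte markers, 10 of 10 were in the table with a summed level of 360251, 352793 and 330382 normalised counts across the control, contralateral and occluded pools in turn, and 10 neuron markers summed to 323900, 281410 and 273570. Transcripts of both cell types were thus abundant, and the cells that gave a member's reads were not identified. In these bulk pools, fewer cells of a type and less RNA per cell cannot be told apart. The contralateral pool stood apart through transcripts of male germ cells: 10 such markers summed to 12926 normalised counts there, against 1144 in the control and 1198 in the occluded pool.

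Promoter sequences of RefSeq (GRCm38.p6) were found for 6 of the 10 genes. The 250 bases before the start are shown for Lcn2 and Steap4, both higher in the occluded pool, and for the ferritin pair Fth1 and Ftl1, which were higher together. They are written 5′ to 3′ on the gene's strand, and capitals mark matches to the motifs named in the next paragraph. The windows are chr2:32387740-32387989 on the minus strand for Lcn2, chr5:7960222-7960471 on the plus strand for Steap4, chr19:9982396-9982645 on the plus strand for Fth1 and chr7:45459887-45460136 on the minus strand for Ftl1. The Fth1 window precedes the start nearer to the end of the gene, since RefSeq lists an earlier start as well.
Lcn2: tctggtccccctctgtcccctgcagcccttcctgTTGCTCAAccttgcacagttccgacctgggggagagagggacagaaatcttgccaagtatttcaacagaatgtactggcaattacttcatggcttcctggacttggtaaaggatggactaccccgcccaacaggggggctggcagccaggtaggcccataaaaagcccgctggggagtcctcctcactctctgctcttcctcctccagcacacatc
Steap4: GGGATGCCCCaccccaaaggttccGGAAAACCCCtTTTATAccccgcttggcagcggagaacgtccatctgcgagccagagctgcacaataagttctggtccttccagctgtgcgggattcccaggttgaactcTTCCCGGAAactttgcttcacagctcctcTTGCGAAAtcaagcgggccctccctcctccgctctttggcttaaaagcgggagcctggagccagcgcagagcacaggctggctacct
Fth1: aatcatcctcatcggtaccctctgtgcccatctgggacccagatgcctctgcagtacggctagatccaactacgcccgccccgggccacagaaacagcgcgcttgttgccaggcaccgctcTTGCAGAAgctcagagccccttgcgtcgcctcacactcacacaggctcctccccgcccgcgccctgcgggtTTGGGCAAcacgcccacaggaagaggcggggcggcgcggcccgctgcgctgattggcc
Ftl1: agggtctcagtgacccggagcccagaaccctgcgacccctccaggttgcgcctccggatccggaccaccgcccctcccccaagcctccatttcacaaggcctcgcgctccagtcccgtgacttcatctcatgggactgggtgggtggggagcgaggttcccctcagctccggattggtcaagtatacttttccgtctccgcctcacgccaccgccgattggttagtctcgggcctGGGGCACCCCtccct

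The motifs were searched on both strands of the 250 bases, and the matches in the windows shown do not overlap each other. The C/EBP-type motif TTGCNNAA occurred in Lcn2, 216 to 209 bases before the start, in Steap4 from 87 to 80, and in Fth1 at 2 places. It was present in 9.57% of 32817 promoter windows of the same length. The STAT-type motif TTCNNNGAA, present in 7.01% of windows, occurred in Steap4 from 116 to 108 bases before the start. The canonical NF-kB motif, present in 3.9%, occurred at 2 places in Steap4, from 250 to 241 and from 226 to 217 bases before the start on the opposite strand, and in Ftl1 from 15 to 6. A match to TATAAA, present in 12.4%, lay on the opposite strand of Steap4. The antioxidant response motif TGACNNNGC (10.2% of windows) and the hypoxia motif ACGTG (16.6%) had no match in these 4 windows. All 6 motifs were searched in every window. A match describes letters only, and no match says only that the letters are not in this window.

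The first question was which members differed in the occluded hemisphere. Lcn2, Hmox1 and Trf in the occluded pool were 2-fold higher or more than in each right-side pool on the log2(value + 5) scale, both ferritin subunits were higher by less, and Cp, Slc11a2, Slc40a1 and Tfrc lay within 1.5-fold of the control. Of the 10 genes, 9 reached a mean of 20 normalised counts over the libraries and were counted, and Steap4 with a mean of 17.7 did not. Thus 3 of 9 were higher than in each right-side pool, where 2.58% of 14906 genes were, and 0 of 9 were lower, where 0.517% were. Against the control alone 3 of 9 were higher (4.12% of all genes) and 0 lower (1.25%). Against the contralateral pool 3 of 9 were higher (3.18%) and 0 lower (4.96%). Over the 9 genes the log2 difference between the occluded pool and the control had a median of 0.59, beside 0.00 over all genes. With no replicate library, none of these differences can be set against the spread between animals.

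**Figure D1:**
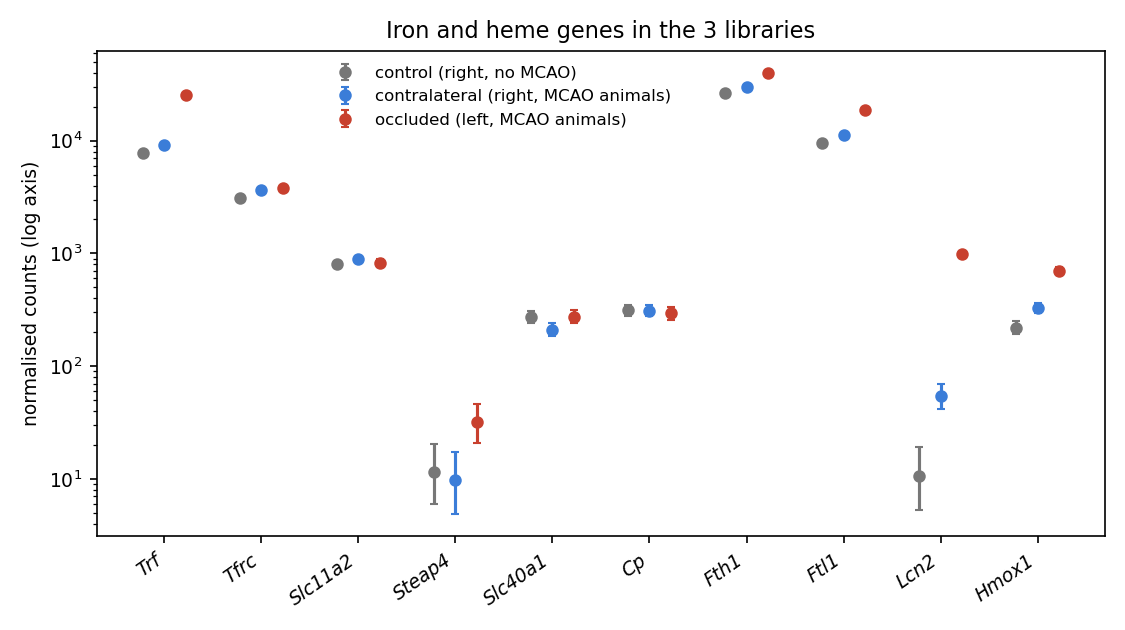
Normalised counts (vertical log axis) of the 10 genes in the control (grey), contralateral (blue) and occluded (red) pools, 1 library each, with exact 95% Poisson intervals for counting error only. Lcn2 goes from 10.7 in the control to 981 in the occluded pool, and the points of Cp lie between 294 and 314. Points are to be compared within a gene.

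Iron uptake begins with transferrin. Trf, which encodes it (chromosome 9, 103208876 to 103230286), stood at 7713 normalised counts in the control pool, 9189 in the contralateral pool and 25179 in the occluded pool. The occluded side stood well above the right-side pools, which lay close to each other. The occluded level was 3.26 times the control level (3.18 to 3.35) and 2.74 times the contralateral level (2.68 to 2.81). Trf made up 0.0250% of the control's reads (exact Clopper-Pearson interval 0.0245 to 0.0256) and 0.0826% in the occluded pool (0.0815 to 0.0837).

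Oligodendrocyte markers are the first to set beside Trf, since these cells express it strongly. The other 9 oligodendrocyte markers summed to 125096, 104673 and 159332 normalised counts across the control, contralateral and occluded pools in turn. None of the 9 was 2-fold higher or lower than in the control pool, and their log2 differences ran from -0.24 to 0.83 with a median of 0.35, against 1.71 for Trf. The myelin genes Mag and Cldn11 were highest among them, at 0.83 and 0.67. Of 8 choroid plexus and ependyma markers none differed 2-fold from the control. Their summed level was 14610 in the control pool, 18273 in the contralateral pool and 11332 in the occluded pool, and the transthyretin gene Ttr was at 10949, 14272 and 8192. The oligodendrocyte sum was higher in the occluded pool by less than Trf was, and the choroid plexus and ependyma sum was lowest there. The part of these cells in the Trf level was not tested.

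Tfrc, the transferrin receptor gene (chromosome 16, 32608896 to 32632794), stood at 3119.6 normalised counts in the control pool, 3645 in the contralateral pool and 3783 in the occluded pool. The control was the lowest, and both pools of MCAO animals lay within counting error of each other. The occluded pool was at 1.21 times the control level (1.15 to 1.27) and 1.04 times the contralateral level (0.991 to 1.09). Ligand and receptor thus differed from the control by unequal amounts. The 9 other endothelial markers, which include vessel genes such as Cldn5 and Pecam1, summed to 2609, 2033 and 3018 normalised counts in the 3 libraries. Slc16a1 dominates this sum, with 1841, 1435 and 2090. Cldn5 had 114, 85.2 and 169, and Pecam1 had 109, 82.5 and 104.

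Slc11a2, the divalent metal transporter gene (chromosome 15, 100387898 to 100424209), stood at 799 normalised counts in the control pool, 895 in the contralateral pool and 821 in the occluded pool. Its ratio to the control was 1.03 (0.928 to 1.14), an interval that holds a ratio of 1. Its span overlaps that of Gm5475, and whether counting used strand is not given in the sources used here.

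Steap4, a metalloreductase gene induced by inflammatory signals (chromosome 5, 7960472 to 7982213), had the fewest reads of the 10 over the 3 libraries together. It had 11.6 normalised counts in the control pool, 9.76 in the contralateral pool and 31.8 in the occluded pool, from 12, 11 and 27 reads. The right-side pools had nearly the same level, and the occluded pool was above both, at 2.73 times the control level (1.34 to 5.92) and 3.25 times the contralateral level (1.56 to 7.27). Both intervals reach below 2-fold, so at this depth the size of the difference is loosely known. Without the filter on low values Steap4 was the fourth gene higher than in each right-side pool, that is 4 of 10, where 3.01% of the 16610 genes were.

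Neither iron export member differed 2-fold between any pools. Slc40a1, which encodes ferroportin (chromosome 1, 45908070 to 45926532), stood at 273 normalised counts in the control pool, 211 in the contralateral pool and 275 in the occluded pool. The contralateral pool was the lowest, at 0.773 times the control level (0.648 to 0.922), and the occluded pool was at 1.01 times the control level (0.844 to 1.20) and 1.30 times the contralateral level (1.08 to 1.57). Endothelial markers were mostly lower in the contralateral pool too, with a median log2 difference of -0.39 from the control against -0.36 for Slc40a1. They ranged from -0.97 to 0.12. The median was -0.31 for mural and -0.26 for oligodendrocyte precursor markers, but 0.35 for perivascular fibroblast markers. The part of any of these cells in the Slc40a1 level was not tested. Cp, which encodes ceruloplasmin (chromosome 3, 19956933 to 20009750), stood at 314, 311 and 294 normalised counts, control first. Its ratio of the occluded pool to the control was 0.937 (0.791 to 1.11), and the 3 libraries did not differ beyond counting error. The span of Cp overlaps that of Hps3.

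Cp, Lcn2 and Steap4 are all listed as genes of reactive astrocytes, and Cp differed from its companions here. The other 6 reactive astrocyte markers, Gfap, Vim, Serpina3n, Cd44, Osmr and Timp1, were in the occluded pool all 2-fold higher or more than in each right-side pool. Timp1, with 2.91, 19.5 and 428 normalised counts, had a mean of at least 20 only through the occluded pool. The log2 differences of the other 5 from the control ran from 2.04 to 4.33, against 5.98 for Lcn2, 1.15 for Steap4 and -0.09 for Cp.

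Iron storage transcripts were higher on the occluded side. Fth1, the ferritin heavy chain gene (chromosome 19, 9980600 to 9985111), stood at 26208 normalised counts in the control pool, 29822 in the contralateral pool and 39531 in the occluded pool. The occluded level was 1.51 times the control level (1.48 to 1.53) and 1.33 times the contralateral level (1.31 to 1.35). Ftl1, the light chain gene (chromosome 7, 45457944 to 45459886), stood at 9537, 11199 and 18831 normalised counts, or 1.97 times the control level (1.93 to 2.02) and 1.68 times the contralateral level (1.64 to 1.72). Both subunits followed the order control, contralateral, occluded. Ftl1 sat just inside the 2-fold line, at a log2 difference of 0.98, and passed it with 1.01 when the libraries were scaled to their upper quartile.

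The subunits were not higher by equal factors. The ratio of Ftl1 to the control exceeded that of Fth1 1.31-fold (counting interval 1.27 to 1.35, from the normal approximation of the log ratio), and the excess over the contralateral pool was 1.27-fold (1.23 to 1.30). Between the right-side pools it was 1.03-fold (1.00 to 1.06). This comparison does not depend on library scaling or transcript length. Together, both genes held 0.116% of the control's reads (0.115 to 0.117), 0.136% of the contralateral reads (0.135 to 0.138) and 0.191% of the reads in the occluded pool (0.190 to 0.193). Ferritin genes have near-identical processed pseudogenes, so reads may be shared with such copies, and the single values are uncertain.

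**Figure D2:**
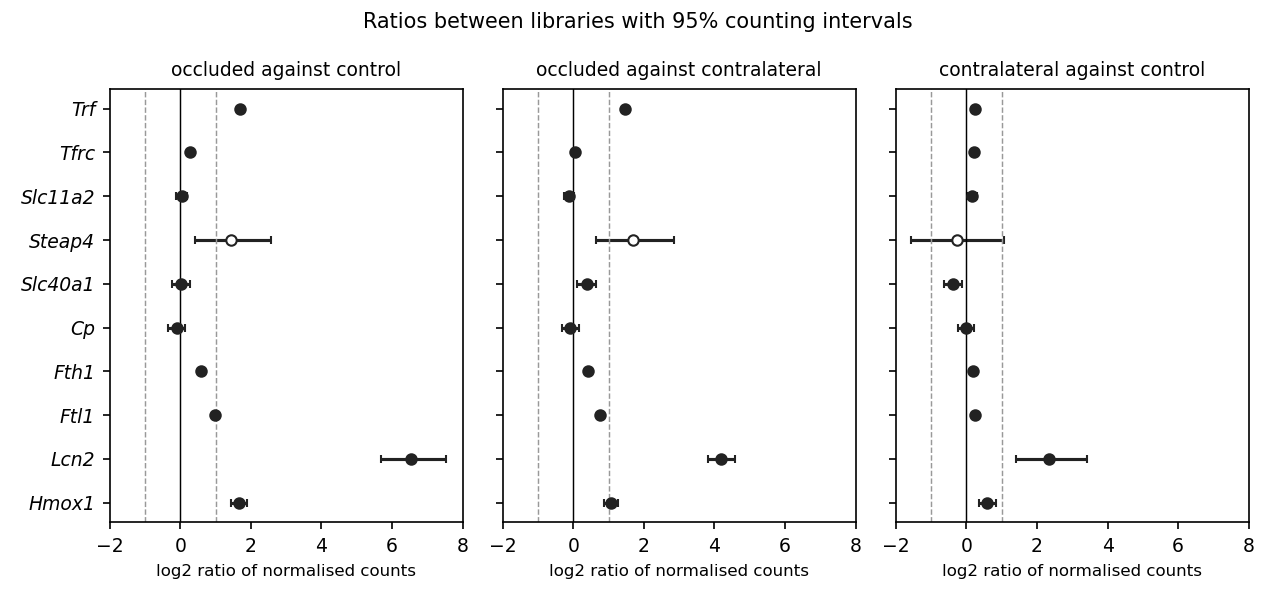
Log2 ratio of normalised counts (horizontal axis) for each gene in the 3 comparisons, with exact 95% counting intervals as bars. Dashed lines mark 2-fold and the open circle marks Steap4, whose mean was under 20. Trf and Lcn2 lie right of the 2-fold line in both comparisons of the occluded pool, and the interval of Hmox1 against the contralateral pool crosses it.

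Lcn2, encoding the siderophore binder lipocalin 2 (chromosome 2, 32384637 to 32387739), stood at 10.7 normalised counts in the control pool, 54.1 in the contralateral pool and 981 in the occluded pool, from 11, 61 and 834 reads. All 3 pools were far apart, and the ratio of the occluded pool to the control, 92.1 (51.2 to 185), was the largest of the 10 genes. Only 1 of the 14906 genes had a larger log2 difference from the control, and 11 had a larger one from the contralateral pool. The interval against the contralateral pool was 14.0 to 23.9 around a ratio of 18.1. Lipocalin 2 is also stored in neutrophil granules. Of 10 neutrophil markers, 3 were in the table, S100a9, Mmp9 and Csf3r, and the granule genes Camp, Ngp, Ltf and Mmp8 were not. The 3 summed to 146 normalised counts in the control pool, 145 in the contralateral pool and 383 in the occluded pool, while Lcn2 alone went from 10.7 to 981. Csf3r carried most of the higher sum, with 81.4, 96.7 and 314, S100a9 was at 5.81, 14.2 and 16.5, and Mmp9 was at 59.1, 33.7 and 52.9. The part of neutrophils in the Lcn2 level was not tested. Its cell surface receptor gene Slc22a17, by contrast, had 11193, 10492 and 10757 normalised counts, a log2 difference of -0.06 from the control.

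Hmox1, the inducible heme oxygenase gene (chromosome 8, 75093618 to 75100593), stood at 219.9 normalised counts in the control pool, 331 in the contralateral pool and 693 in the occluded pool. The 3 libraries were stepped, with the contralateral value between the others. The occluded pool was at 3.15 times the control level (2.70 to 3.69) and at 2.09 times the contralateral level (1.84 to 2.39), so the second call lies within counting error of the 2-fold line. Hmox2, the constitutive form, had 1369, 1808 and 1456 normalised counts and did not reach 2-fold in any comparison.

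Myeloid cells also express Hmox1, and most microglia markers stood higher in the occluded pool too. Of 10 microglia markers 7 in the occluded pool were 2-fold higher or more than in each right-side pool, and the list summed to 9767, 9721 and 27993 normalised counts across the control, contralateral and occluded pools in turn. The macrophage list, with 8 of its 10 genes in the table, summed to 262, 344 and 1408, and Gpnmb, F13a1 and Msr1 were 2-fold higher or more than in each right-side pool. Msr1, with 4.84, 5.32 and 519, had a mean of at least 20 only through the occluded pool, while Gpnmb had 58.1, 63.9 and 471 and F13a1 had 44.6, 65.7 and 167. The hemoglobin scavenger receptor gene Cd163, which is found on perivascular macrophages, had 65.9, 88.7 and 69.4. The microglia sums of the right-side pools were thus close, where Hmox1 was 1.51-fold apart, and the part of these cells in the levels of Hmox1 and the ferritin genes was not tested.

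**Figure D3:**
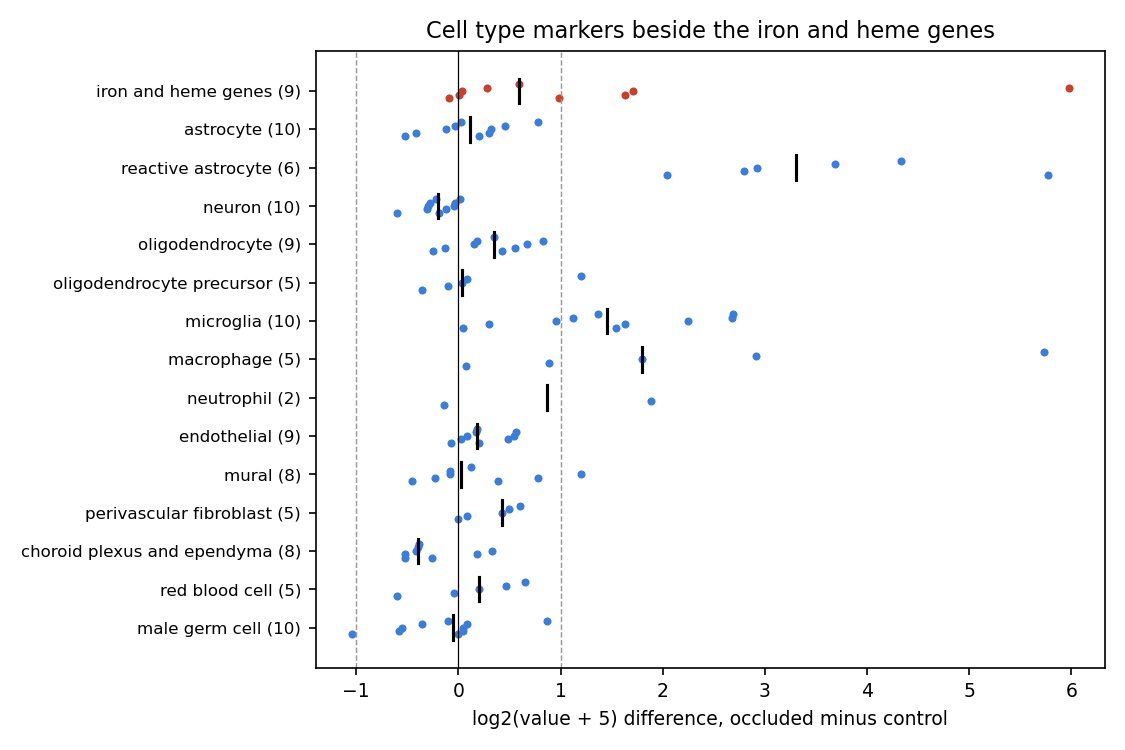
Log2(value + 5) difference between the occluded pool and the control (horizontal axis) for 9 iron and heme genes (red) and for markers of each cell type (blue). Each point is 1 gene, black bars are medians and numbers in brackets count genes with a mean of at least 20. Reactive astrocyte and microglia markers lie mostly right of the dashed 2-fold line, and the 9 oligodendrocyte markers all lie inside it.

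Next, the contralateral hemisphere was set against the control. Of the 9 genes counted, Lcn2 was at least 2-fold higher (5.17% of all genes were) and 0 were lower (0.362% were). Lcn2 was at 5.08 times the control level (2.65 to 10.7), Hmox1 at 1.51-fold (1.27 to 1.78) and Trf at 1.19-fold (1.16 to 1.23). Fth1 was at 1.14-fold (1.12 to 1.16), Ftl1 at 1.17-fold (1.14 to 1.21) and Tfrc at 1.17-fold (1.12 to 1.22). The order of levels control, contralateral, occluded thus held for 6 of the 9 genes, Lcn2, Hmox1, Trf, Fth1, Ftl1 and Tfrc, and for 21.8% of the 14906 genes. The 6 ratios are not independent of those above, since the comparisons share libraries. For Tfrc the step from contralateral to occluded was within counting error. The small steps from control to contralateral were common among all genes. Of the 14906 genes, 78.0% had a lower log2 difference there than Trf and 76.6% than Ftl1. The share was 76.0% for Tfrc and 72.8% for Fth1, beside 91.5% for Hmox1 and 96.6% for Lcn2.

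**Figure D4:**
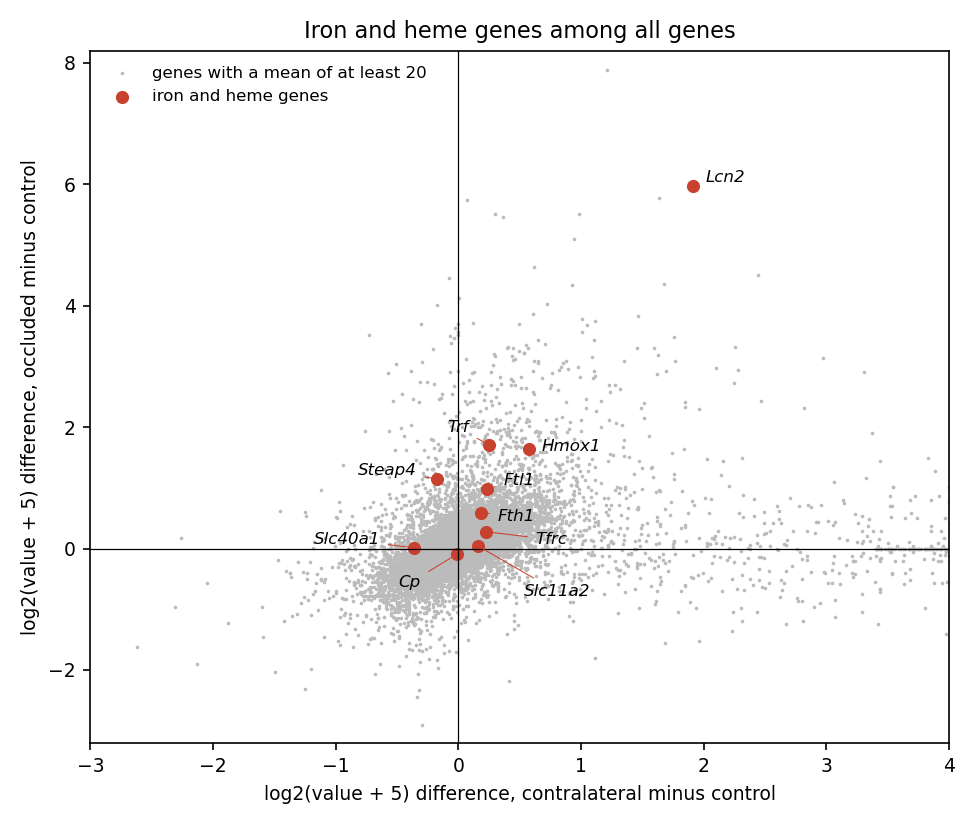
Each grey point is 1 of the genes with a mean of at least 20, placed by its log2(value + 5) difference of the contralateral pool (horizontal) and of the occluded pool (vertical) from the control; 210 genes right of 4 are beyond the axis. The 10 iron and heme genes are red, with Lcn2 high in the upper right, Trf and Hmox1 near 1.7 and 1.6 on the vertical axis, and Cp, Slc11a2 and Slc40a1 near 0.

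The wider pathway was given by 7 lists of other iron and heme genes, 92 of which were in the table and 87 of which had a mean of at least 20. None of the 87 was 2-fold higher or lower in any of the 3 comparisons. Of all genes, 4.12% were 2-fold higher and 1.25% lower in the occluded pool than in the control, 3.18% and 4.96% against the contralateral pool, and 5.17% and 0.362% in the contralateral pool against the control, so few calls among 87 genes would match that background. Their median log2 difference between the occluded pool and the control was 0.08, beside 0.00 for all genes, and 80 of the 87 were within 1.5-fold.

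Among 12 uptake, reduction and export partners, Cybrd1, a ferric reductase gene, had the largest difference, with 364, 454 and 666 normalised counts. It was at 1.83 times the control level, with a lower interval end of 1.60. Steap3, the endosomal ferric reductase gene, had 305, 257 and 414. Steap2 had 686, 553 and 560, and Heph, encoding the ferroxidase hephaestin, had 1023, 1092 and 872. The reductases other than Steap4 thus did not share a direction.

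The iron sensing and ferritin turnover list of 12 had a median of -0.06. Ncoa4, the cargo receptor that takes ferritin to lysosomes, had 3555, 4049 and 4820 normalised counts, and Hfe, which modulates transferrin receptor binding, had 74.6, 74.5 and 113. Bmp6, a ligand that induces hepcidin, had 478, 415 and 347, and Id1, a target of this signal, had 217, 341 and 373. The iron regulatory protein genes Aco1 and Ireb2 had log2 differences of 0.20 and -0.09 from the control, and Fbxl5, which targets iron regulatory protein for degradation, had -0.08.

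Heme synthesis genes, 12 in all, had a median of -0.02. The late enzyme gene Ppox had 162, 188 and 234 normalised counts, and the mitochondrial porphyrin transport gene Tmem14c had 1052, 1320.2 and 1466. The erythroid synthase gene Alas2 went the other way, with 98.8, 70.1 and 63.5. Alas1, which encodes the synthase of most tissues, differed by -0.15 on the log2 scale.

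Of 13 genes of heme breakdown, binding and transport, Hpx, encoding the heme scavenger hemopexin, was nearest to 2-fold between the occluded pool and the control. It had 24.2, 31.9 and 48.2 normalised counts, with a ratio of 1.99 to the control and a lower interval end of 1.18. The biliverdin reductase genes Blvra and Blvrb had 554, 560 and 729 and 566, 778 and 755. The heme-binding protein gene Hebp1 had 845, 897 and 1155. Lrp1, the hemopexin receptor gene, named after its values were seen, was lowest in the contralateral pool, with 168402, 90969 and 136623. The repressor gene Bach1, which is released from its targets by heme, had a log2 difference of 0.08. Hmox1 was thus the sole gene of its arm to pass 2-fold among those counted.

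**Figure D5:**
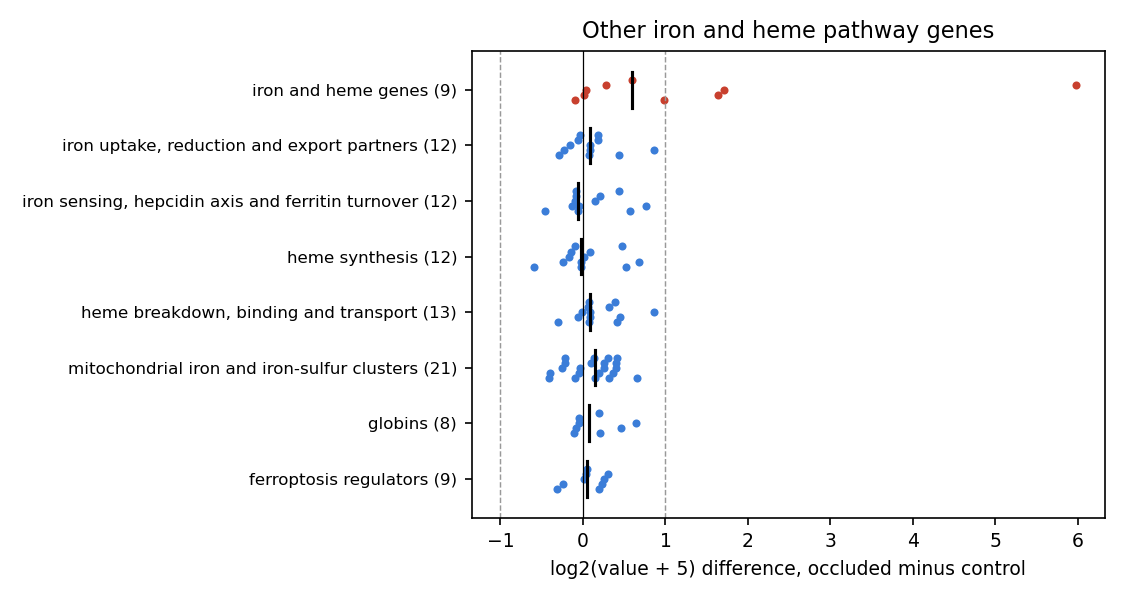
Log2(value + 5) difference between the occluded pool and the control (horizontal axis) for the 9 iron and heme genes (red) and the genes of 7 pathway lists (blue). Each point is 1 gene, bars are medians, and the numbers in brackets count genes with a mean of at least 20. All 87 blue genes lie between the dashed 2-fold lines.

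The mitochondrial iron and iron-sulfur list of 21 had a median of 0.15. The cluster assembly gene Bola3 had 227, 270 and 359 normalised counts, and the ferredoxin gene Fdx1 had 237, 273 and 318. The assembly gene Isca2 had 615, 704 and 816, while Slc25a37, the mitoferrin gene, had 435, 316 and 325. Ferroptosis regulators, 9 in all, ranged from -0.32 for Ptgs2 to 0.30 for Aifm2, and Gpx4, which detoxifies lipid peroxides, was at 0.20.

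Globin transcripts are abundant in red blood cells, the main source of heme in blood. The alpha globin gene Hba-a1 had 1213, 1684 and 1676 normalised counts and Hba-a2 had 855, 1188 and 1343. The beta globin gene Hbb-b1 had 847, 1064 and 975 and Hbb-bs had 457, 574 and 526. Hbb-bt had 94.9, 60.3 and 91.7, lower than the control in the contralateral pool and within counting error of it in the occluded pool. Near-identical globin genes can share reads. The 5 red blood cell markers in the table summed to 2719, 3577 and 3701 normalised counts, control first and occluded last. Hba-a1 and Hba-a2 dominate this sum. Alas2 went the other way in both pools of MCAO animals, and Hbb-bt in the contralateral pool. Hbb-bt and Hbb-b2 carried identical values in every library, so the globin list held a pair of names with the same values.

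In the lists, 5 genes had a mean under 20, and they are named after their values were seen. Ftmt, the mitochondrial ferritin gene, was listed at the minimum of 1 in the control and the occluded pool and had 50.6 normalised counts in the contralateral pool. Transcripts of male germ cells, in which Ftmt is known to be expressed, were high in that same library, and their part was not tested. Steap1 had 7.75, 14.2 and 9.41, the hepcidin-lowering protease gene Tmprss6 had 17.4, 16.0 and 7.06, the haptoglobin gene Hp had 8.72, 8.87 and 15.3, and the lipoxygenase gene Alox12 had 10.7, 5.32 and 2.35.

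Last, genes with the most similar pattern over the 3 libraries were sought for Lcn2, Hmox1 and Trf, by the Euclidean distance of their log2 differences from the control. Lcn2 was closest to Timp1, at a distance of 0.35, with 2.91, 19.5 and 428 normalised counts, then to Lilrb4a at 1.04 and Spp1 at 1.31. Few genes were as extreme as Lcn2, and its neighbours were accordingly far. Hmox1 was closest to Hlx, Tpx2 and Spc24, all within 0.10, and Trf to Gpr183, Themis2 and Cenpa, at 0.04, 0.05 and 0.06. Hlx had 11.6, 18.6 and 48.2 normalised counts, Themis2 15.5, 18.6 and 62.3, and Lilrb4a 2.91, 10.6 and 355. These genes and Timp1 had a mean of at least 20 only through the occluded pool. Counting error at such low levels was not set against the distances. With 3 libraries such likeness rests on 3 values per gene.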

How the data were processed

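Ribosome-bound RNA from 3 pooled libraries was analysed from the authors' deposited table, whose values are a signal, namely read counts per gene divided by a size factor of each library. The submitters' processing notes list, without their roles, the build mm10 and the tools HISAT2 2.0.11, R 3.3.1, DESeq2, CASAVA 1.8 and Partek 6.6. Per the series design, each library pools 3 animals with 2 technical replicates. Values below 1 were listed as 1, and every gene reached 10.6 or more in some library. Columns were matched through the sample descriptions, and 0 columns were left unused.

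What 1 read is worth was found from the steps between low values: 0.969, 0.887 and 1.18 normalised counts across the control, contralateral and occluded pools in turn. Values above 1 came out as whole reads, to a tolerance of 0.1, in 99.9% of cases in each pool. Differences were taken as log2(value + 5) for the 14906 genes averaging 20 or more, and counted at 2-fold. Printed ratios have no pseudocount, and carry 95% intervals by the exact Clopper-Pearson method on recovered reads. Intervals cover counting error only, because each group has 1 library. PCR copies of a molecule could not be told apart without identifiers, so the intervals may be too narrow even for counting error. With 1 library per group there was no test and no p-value. The members, lists and motifs were chosen with earlier results of these data known. All 10 members are named, and up to 4 genes of each other list with the largest difference between the occluded pool and the control, with others as background to a member or where said. Genes that this rule takes and the text does not name are not reported here. The 3 most alike genes were named for each member called against both right-side pools. Coordinates and promoters are from RefSeq for GRCm38.p6 (mm10), in which 15912 of 16610 symbols were found. Procedures were tested on simulated data. Python 3.11.15, pandas 2.3.3, scipy 1.17.1 and, for scaling factors, edgeR 4.0.16 were used. Alternatives were other pseudocounts, filters, scalings and fold thresholds.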

Additional observations from a re-analysis of the deposited data

How the results depend on the processing

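The 3 genes higher in the occluded pool than in each right-side pool, Lcn2, Hmox1 and Trf, were the same under pseudocounts of 1 and 20, a mean of at least 100, and scaling to the library total, the upper quartile or TMM. With no filter Steap4 joined them, and at 1.5-fold Ftl1 did. At 3-fold the count was 1, Lcn2, against both right-side pools and against the contralateral pool alone. At 1.5-fold 5 genes were higher than the control, through Fth1 and Ftl1, as the lower threshold implies. Without the contralateral pool, an alternative chosen after seeing the data, what is left is the comparison with the control and its count of 3, so this says nothing about stability. Of 150 recomputed log2 differences, 145 stayed within the counting interval of the main value and 5 moved beyond it. No difference past 2-fold changed sign, but 3 near 0 did. The sign of Slc40a1 against the control flipped with TMM, at 0.00, and that of Cp in the contralateral pool with the library total (0.02) and the upper quartile (0.03). Scaling moved the median of all genes by less than 0.1. No paired analysis was possible because each group has 1 library. Depth limits Steap4 and the control value of Lcn2, which rest on 12 and 11 control reads.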
